A study of Homo sapiens with 8 samples.

Results

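Ribosome biogenesis and nucleolar factors, 43 named genes out of 38551 gene rows with counts, were followed in MOLM-13 cells treated with the immunoproteasome inhibitor PR-957. The rule that selects the genes is a list of names and uses no measured value, although the list was drawn up with earlier results of these data known. They fall into 5 role groups: RNA polymerase I (Pol I) machinery with 5 genes, proteins of small nucleolar ribonucleoproteins (snoRNPs) with 9, small-subunit processing factors with 12, large-subunit processing factors with 13, and general nucleolar proteins with 4. MOLM-13 is an established human acute myeloid leukemia line with a KMT2A rearrangement. PR-957 (ONX-0914) blocks PSMB8, a catalytic subunit of the immunoproteasome. One group of 4 libraries came from cells given 100 nM PR-957 for 72 h, and the other group of 4 from cells kept for 72 h with DMSO, the diluent. All 8 libraries are polyA RNA of the same line, and no other line, dose or time is part of the comparison. The labels number the replicates without saying whether they came from separate cultures, so p-values measure the spread between these libraries, which may be technical.

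Ribosomes are assembled in the nucleolus, where Pol I transcribes a long precursor rRNA that is modified, folded and cut while ribosomal proteins join it. Box C/D snoRNPs guide methylation of the precursor and box H/ACA snoRNPs guide its pseudouridylation. The small-subunit processome and the large-subunit particles then mature along separate routes before export to the cytoplasm, and in leukemia cells many genes of this programme are known targets of MYC.

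The libraries held between 16675036 and 23111223 counts, and 13179 genes were tested. All 8 marker genes of myeloid blasts had counts in every library: CEBPA and CD33 were not called (means with DMSO and PR-957 of 564 and 555, and of 37.5 and 38.6 CPM, where CPM is the count relative to the library total, scaled by trimmed mean of M values, TMM), SPI1 (158 and 181 CPM) and MPO (175 and 506) were called higher, and FLT3 (340 and 173), PTPRC (207 and 131), HOXA9 (14.4 and 9.40) and MEIS1 (60.5 and 47.9) were called lower. The T cell marker CD3E was at 0 in all 8 libraries. Of the markers of mature myeloid cells, LYZ averaged 153 CPM with DMSO against 820 with PR-957, S100A8 1.12 against 12.4 and S100A9 2.56 against 17.2, all called higher. ITGAM, CSF1R and FCGR1A, with log2 fold changes of 0.22, 0.34 and -0.10, were not called, and CD14 stayed under 1 CPM in both groups. Erythroid markers summed to 95.6 to 114 CPM in DMSO and 176 to 204 CPM in PR-957, mostly TFRC, and mitochondrially encoded genes took 1.94 to 2.75% and 4.15 to 5.24% of counts. The part of these shifts in the results below was not tested. DMSO replicate 4 stood apart from the other libraries: it was the lowest DMSO library for 40 of the 42 members tested (95.2%), against 34.7% of all tested genes. The counts and medians of the role groups are therefore also given without it. In bulk RNA, a change in the make-up of the culture and a change of RNA per cell cannot be told apart.

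Promoter sequences of the members are shown first, since many of these genes carry the same short motif close to their start. RefSeq promoter windows on GRCh38.p14, from 250 bases before to 50 after a transcription start, were matched for 37 of the 43 members. NOP58, NOLC1, RRP12, BOP1, URB2 and RRP1B were not matched. The E-box CACGTG, which reads the same on both strands and is the site recognised by MYC with its partner MAX, occurred in the windows of 16 of the 37 members (43.2%). It occurred in 8.77% of 27305 genes of the table and in 12.8% of the 9912 genes that were also tested. By call, the E-box was in 9 of 12 matched members that were higher under PR-957, in 3 of 10 that were lower, and in 4 of 15 of the others. A match describes letters in a window and not a bound site, members with several windows (10 of the 37) had more letters to match in, and the split by call was noticed in these data and was not tested. The E-box nearest the start in each called member is printed below with up to 12 bases on each side, 5′ to 3′ on the gene's own strand, with the motif in capitals. Distances are those of its first base from the start, the first transcribed base being +1. The start is that of the RefSeq window, and some members have an outer start farther upstream in the gene models used for counting. For LYAR and PES1, on the minus strand, the models reach chr4:4290195 and chr22:30607013, so the start used lies inside the gene.
Higher under PR-957, with the E-box at -11 in NOP10 (chr15:34343130-34343159, minus strand), +32 in GAR1 (chr4:109815781-109815810, plus), -10 in UTP20 (chr12:101280083-101280112, plus), +36 in NOP2 (chr12:6568242-6568268, minus), +14 in PES1 (chr22:30591880-30591909, minus), +7 in GNL3 (chr3:52686026-52686055, plus), +15 in MRTO4 (chr1:19251807-19251836, plus), +43 in EBNA1BP2 (chr1:43172241-43172260, minus) and -64 in LYAR (chr4:4290068-4290097, minus):
NOP10: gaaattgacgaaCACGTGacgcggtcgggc
GAR1: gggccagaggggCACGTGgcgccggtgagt
UTP20: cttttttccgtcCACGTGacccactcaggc
NOP2: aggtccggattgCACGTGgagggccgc
PES1: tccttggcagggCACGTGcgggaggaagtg
GNL3: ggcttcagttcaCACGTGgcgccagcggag
MRTO4: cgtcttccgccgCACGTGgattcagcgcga
EBNA1BP2: gcgattcggtggCACGTGga
LYAR: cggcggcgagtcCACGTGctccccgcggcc
Lower under PR-957, with the E-box at +16 in NOP14 (chr4:2963374-2963403, minus), +4 in WDR43 (chr2:28894658-28894687, plus) and -15 in NAT10 (chr11:34105602-34105631, plus):
NOP14: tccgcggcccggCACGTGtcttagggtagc
WDR43: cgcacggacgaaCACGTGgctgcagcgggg
NAT10: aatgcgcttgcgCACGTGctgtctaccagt

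The members with the largest rise and the largest fall had no CACGTG in their windows. NOP16, with the largest rise, instead held the ETS-family core CCGGAAG on both strands, the copies overlapping from 19 bases before the start (chr5:176388598-176388627, minus strand, capitals mark both copies). In the gene models used for counting, another NOP16 transcript starts farther upstream, so this stretch lies within the gene.
NOP16: ttgtgcacgcCTTCCGGAAGgagtttgtta
CCGGAAG, searched on both strands, was found in 14 of the 37 members (37.8%) and in 22.8% of the tested genes in the table. NOB1, with the largest fall, held neither motif, nor TGATGCAA, a core of the ATF4 response element that was found in 0 of the 37 members. Its window is printed up to the outermost start of the gene models (chr16:69754969-69755176, minus strand, no capitals because no searched motif is in it).
NOB1: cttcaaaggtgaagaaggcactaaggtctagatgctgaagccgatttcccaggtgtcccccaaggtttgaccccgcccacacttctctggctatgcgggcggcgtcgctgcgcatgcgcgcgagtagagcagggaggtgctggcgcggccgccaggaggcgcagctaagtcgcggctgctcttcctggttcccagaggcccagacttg

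To determine how the programme as a whole responded, counts were compared between PR-957 and DMSO with edgeR's quasi-likelihood test, and genes with an adjusted p under 0.05 over all tested genes were called. Of the 42 members tested, 24 were called, 57.1% against 46.6% of all tested genes. The rises numbered 14 (33.3%, against 23.1% of all tested genes called higher) and the falls 10 (23.8%, against 23.5% called lower). The median log2 fold change was 0.07 over the members and 0.00 over all tested genes, with a range from -0.75 for NOB1 to 0.44 for NOP16. Changes were small: 1 of the 42, NOB1, was both called and changed at least 1.5-fold, where 13.8% of all tested genes met both conditions. In 17 members (40.5%) no library of either group overlapped the other group, which is close to the 42.5% of all tested genes. With scaling by library totals alone, which moved the median of all genes to 0.08, the split became 21 higher and 4 lower. Without DMSO replicate 4 it was 13 higher and 14 lower.

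**Figure D1:**
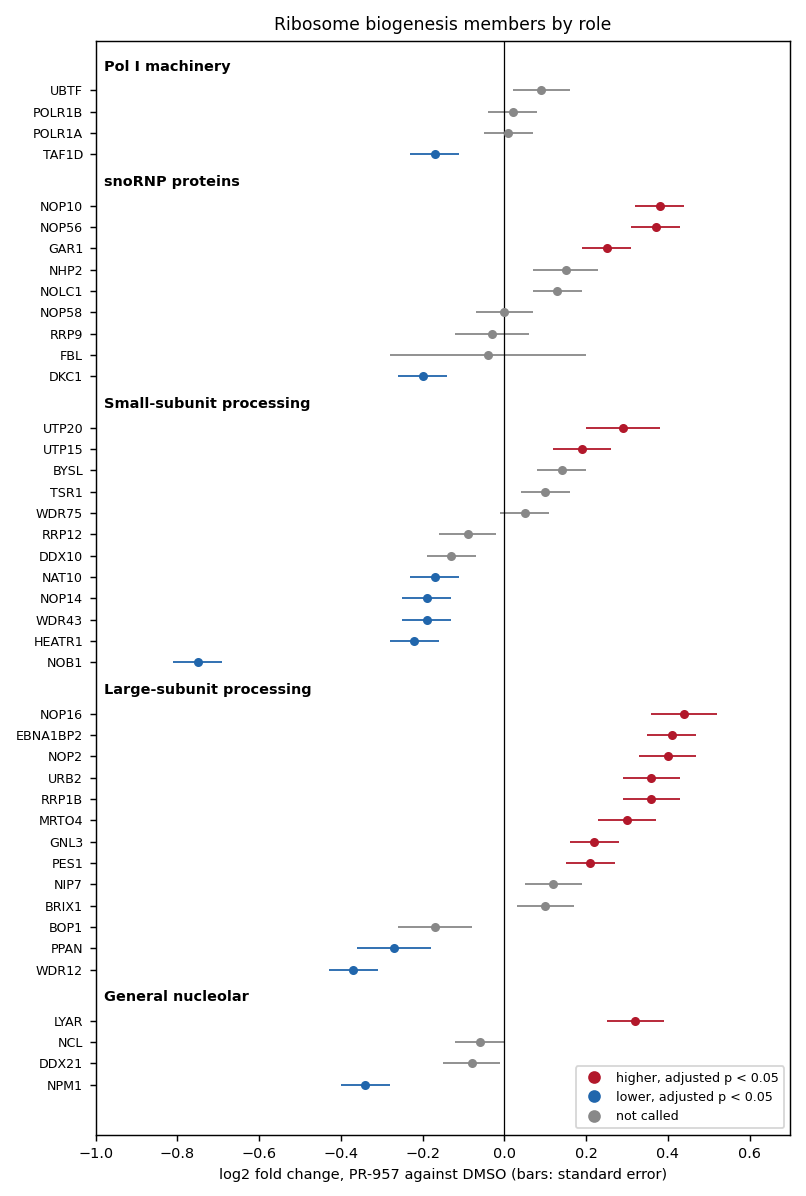
Log2 fold change of each of the 42 tested members, PR-957 against DMSO (x axis, bars are standard errors), grouped by role; red points were called higher, blue lower and grey not called. Large-subunit factors lie mostly to the right, with a median of 0.22, small-subunit factors spread to both sides with a median of -0.11, and NOB1 at -0.75 is far below all others.

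Of the Pol I machinery, 4 of 5 members were tested and 1 of these, TAF1D, was called (25%, against 46.6% of all tested genes). TAF1D is a subunit of the SL1 selectivity factor that places Pol I on the rRNA gene promoter. It stood at 231, 217, 206 and 190 CPM in DMSO replicates 1 to 4 and at 196, 181, 190 and 185 CPM in PR-957 replicates 1 to 4. The 2 groups overlapped in that DMSO replicate 4 lay within the PR-957 range, and the fall was 0.17 on the log2 scale (SE 0.06, edgeR adjusted p = 0.0289), a call that was lost in 7 of 19 alternative settings. The catalytic subunits did not pass the test: POLR1A, the largest subunit, was at 75.6 ± 4.43 CPM in DMSO and 76.0 ± 2.14 in PR-957 (SD, n = 4), and POLR1B, its partner in the active centre, at 84.2 ± 5.06 and 85.5 ± 3.94 CPM. UBTF, which opens and bends rRNA gene chromatin, was at 186 ± 19.2 and 198 ± 7.39 CPM, with a log2 fold change of 0.09 (edgeR adjusted p = 0.265). RRN3, the factor that makes Pol I competent to initiate, averaged 0.303 CPM in DMSO, was too low to be tested and is placed also on 1 alternate contig of the assembly, so its level is not interpreted. The median of the 4 tested genes was 0.01, and -0.02 without DMSO replicate 4, where TAF1D was still called.

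The other Pol I genes, a list of 10 not among the members, changed in both directions, with 4 higher, 3 lower and a median of 0.10. The shares were 40% higher and 30% lower, against 23.1% and 23.5% of all tested genes. ZNRD1, among the genes called lower, is placed also on 7 alternate contigs. POLR1D, a subunit that Pol I shares with Pol III, had the largest fall of that list, with values of 281, 280, 286 and 281 CPM with DMSO and 174, 181, 160 and 161 CPM with PR-957. Every PR-957 library was below every DMSO library for POLR1D, and the fall was 0.74 on the log2 scale (SE 0.05, edgeR adjusted p = 1.95e-09). TAF1C, another SL1 subunit, had the largest rise, 0.40 (SE 0.07, edgeR adjusted p = 0.000120), from 70.9 ± 5.28 to 93.7 ± 9.06 CPM. Thus the SL1 subunits TAF1C and TAF1D were called in opposite directions. The other SL1 subunits on the list, TAF1A (0.07) and TAF1B (-0.17, edgeR adjusted p = 0.0616), were not called.

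Among the 9 snoRNP proteins, 3 were higher (33.3%, against 23.1% of all tested genes) and 1 was lower (11.1%, against 23.5%). The other 5 were not called, and the median was 0.13. Without DMSO replicate 4 the counts were also 3 and 1, and the median was 0.06. NOP10, the small structural protein of H/ACA particles, rose most. Its values were 92.0, 84.6, 95.3 and 85.3 CPM with DMSO and 123, 108, 116 and 115 CPM with PR-957, with every PR-957 library above every DMSO library, a log2 fold change of 0.38 (SE 0.06, edgeR adjusted p = 3.53e-05). GAR1, which joins the same particle last, rose from 102 ± 8.56 to 121 ± 7.30 CPM (log2 fold change 0.25, edgeR adjusted p = 0.00321), also without overlap. DKC1 is the pseudouridine synthase of the particle and was the 1 snoRNP member called lower. It was at 418, 408, 407 and 350 CPM in DMSO and at 360, 345, 340 and 335 CPM in PR-957, so that DMSO replicate 4 alone reached into the PR-957 range. The fall was 0.20 (SE 0.06, edgeR adjusted p = 0.0104) and was lost in 2 of 19 alternatives. NHP2, the fourth core protein, had a log2 fold change of 0.15 (edgeR adjusted p = 0.128) and was called in 6 of 19 alternatives, including a replicate block.

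Box C/D proteins also differed among themselves. NOP56, a scaffold protein of the C/D particle, was at 415, 413, 412 and 338 CPM in DMSO and at 509, 482, 520 and 528 CPM in PR-957, with no overlap and a log2 fold change of 0.37 (SE 0.06, edgeR adjusted p = 0.000114). NOP58, the scaffold protein that pairs with NOP56 in the particle, averaged 262 ± 26.5 CPM with DMSO and 261 ± 9.99 CPM with PR-957 (edgeR adjusted p = 0.963). RRP9, a protein of the U3 snoRNP, was at 71.6 ± 9.17 and 69.7 ± 6.86 CPM, and NOLC1, a chaperone that shuttles between Cajal body and nucleolus, at 389 ± 35.6 and 425 ± 11.7 CPM (edgeR adjusted p = 0.100). NOLC1 was called in 2 of 19 alternatives, including a replicate block. FBL, the methyltransferase, averaged 2.19 CPM in DMSO although it is an abundant protein of every growing cell, and its gene is placed also on 1 alternate contig, so its counts are not read as its expression. Exons of NOP56, DKC1 and TAF1D overlap small RNA genes of the same strand by 3.94%, 5.77% and 1.7% of their exon bases. The other snoRNP and assembly genes gave 2 higher and 2 lower of 10 tested (20% each, against 23.1% and 23.5% of all tested genes). SHQ1, a chaperone of DKC1, had the largest rise of them at 0.34 (edgeR adjusted p = 0.00243), and ZNHIT6, an assembly factor for C/D particles, the largest fall at -0.31 (edgeR adjusted p = 0.00141).

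Of the 12 small-subunit processing factors, 2 were higher (16.7%, against 23.1% of all tested genes) and 5 were lower (41.7%, against 23.5%). The median was -0.11. These counts depended on single libraries: 1 was higher and 7 lower without DMSO replicate 4 (median -0.18), 2 were lower without DMSO replicate 2 or without PR-957 replicate 3, 3 were lower without DMSO replicate 1, and 1 was higher without DMSO replicate 3 or any of PR-957 replicates 1 to 3. NOB1 is the endonuclease that makes the last cut at the end of 18S rRNA in the cytoplasm, and its change exceeded that of every other member. Its levels were 183, 174, 176 and 150 CPM with DMSO and 103, 103, 99.9 and 100 CPM with PR-957. The lowest DMSO library, replicate 4, was still far above the highest PR-957 library, and the PR-957 libraries differed among themselves by an SD of 1.76 CPM. NOB1 fell by 0.75 on the log2 scale (SE 0.06, edgeR adjusted p = 7.57e-09), a change of -40.6%, and between -0.81 and -0.67 in all 19 alternatives. HEATR1, a large scaffold protein of the t-UTP complex that links Pol I transcription to processing, fell by 0.22 (edgeR adjusted p = 0.00401) from 159 ± 8.70 to 136 ± 8.48 CPM, and this call was kept in every alternative as well. NOP14 and WDR43, components of the small-subunit processome, each fell by 0.19, and NAT10, the acetyltransferase of 18S rRNA, by 0.17. The calls of NOP14, WDR43 and NAT10 were lost in 5, 4 and 7 of 19 alternatives, among them the fit to replicates 3 and 4 alone.

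UTP20, a processome component of very large size, had the largest rise of the group. It was at 50.7, 60.5, 48.6 and 44.2 CPM in DMSO and at 63.0, 69.0, 60.0 and 56.7 CPM in PR-957. DMSO replicate 2 overlapped the PR-957 range and the other DMSO libraries lay below it. The log2 fold change was 0.29 (SE 0.09, edgeR adjusted p = 0.0116). UTP15, a t-UTP protein, rose from 26.0 ± 1.43 to 29.5 ± 1.34 CPM (log2 fold change 0.19, edgeR adjusted p = 0.0405), and this call was lost in 9 of 19 alternatives. BYSL, TSR1, WDR75, RRP12 and DDX10, with log2 fold changes of 0.14, 0.10, 0.05, -0.09 and -0.13, were not called. BYSL and TSR1 act on late pre-40S particles, WDR75 is a t-UTP protein, RRP12 is an export factor and DDX10 an RNA helicase. BYSL did not overlap between groups (59.4 to 70.1 CPM in DMSO, 71.5 to 77.0 CPM in PR-957) and missed the threshold with an edgeR adjusted p of 0.0619. BYSL was called in 4 of 19 alternatives and DDX10 in 3, for both including the fit with a replicate block.

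**Figure D2:**
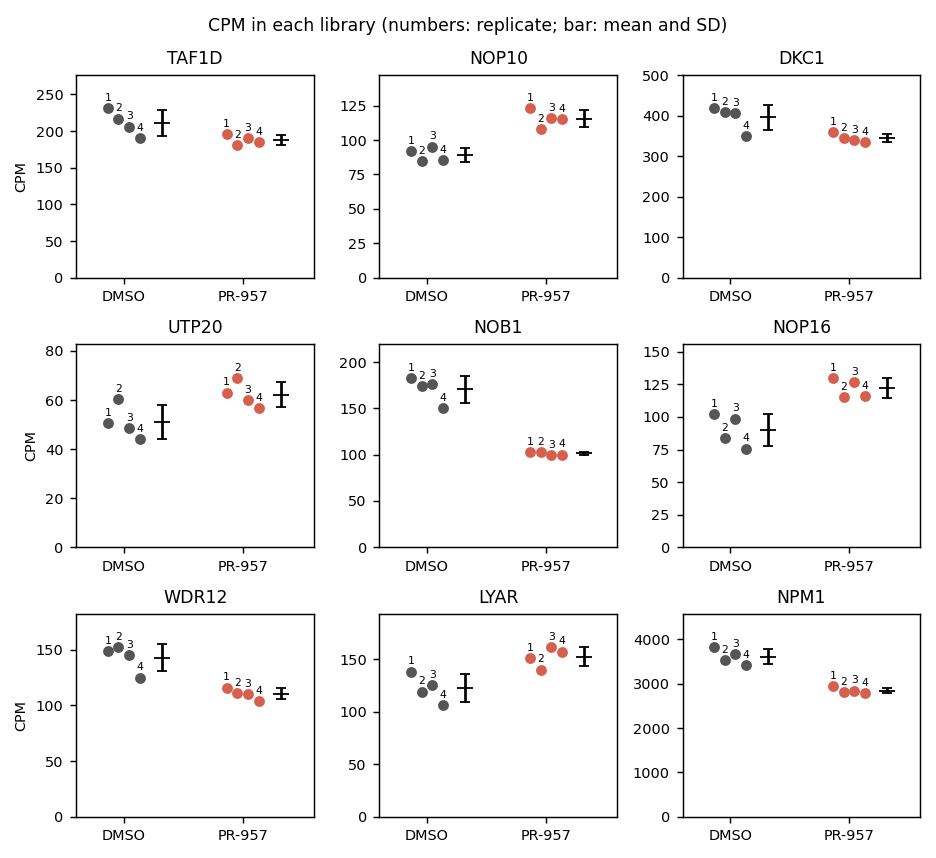
CPM (y axis, from 0) in each library of the members with the largest called rise and fall in each role group; numbers give the replicate and the bar the mean and SD of 4 libraries. NOB1, WDR12 and NPM1 lie lower in all PR-957 libraries than in any DMSO library, NOP10, NOP16 and LYAR higher, and DMSO replicate 4 is the lowest DMSO library in 8 of the 9 plots.

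Large-subunit processing factors held most of the rises, with 8 higher, 2 lower and 3 not called of 13, a median of 0.22. The 8 were 61.5% of the group, against 23.1% of all tested genes, and the 2 were 15.4%, against 23.5%. The 8 rises were also counted without DMSO replicate 4, where 3 were lower and the median was 0.15, and 1 was lower without DMSO replicate 2. NOP16, a nucleolar protein of early large-subunit particles, was at 102, 83.9, 98.8 and 75.8 CPM in DMSO and at 130, 115, 127 and 116 CPM in PR-957. All PR-957 libraries exceeded all DMSO libraries, by a log2 fold change of 0.44 (SE 0.08, edgeR adjusted p = 0.000475). EBNA1BP2, which assembles with early pre-60S particles, rose by 0.41 (edgeR adjusted p = 4.10e-05), from 117 ± 11.8 to 156 ± 4.09 CPM. NOP2, a methyltransferase of 28S rRNA, rose by 0.40 (edgeR adjusted p = 0.000100), and its PR-957 libraries lay between 127 and 134 CPM against 82.3 to 106 CPM in DMSO. URB2 and RRP1B, nucleolar proteins of early pre-60S assembly, each rose by 0.36. MRTO4, which holds the place of the ribosomal stalk, rose by 0.30, GNL3 (nucleostemin), a nucleolar GTPase, by 0.22, and PES1 by 0.21. Of these 8, GNL3 alone overlapped between groups, and all 8 were called in each of the 19 alternatives.

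WDR12 and PES1 form the PeBoW complex with BOP1, a unit needed for maturation of the large-subunit rRNAs, and these partners were called in opposite directions. WDR12 was at 149, 152, 145 and 125 CPM in DMSO and at 116, 111, 110 and 104 CPM in PR-957, a fall of 0.37 (SE 0.06, edgeR adjusted p = 8.71e-05) with no overlap. PES1 was at 253, 232, 245 and 209 CPM in DMSO and at 283, 268, 264 and 270 CPM in PR-957, and its groups did not overlap either. BOP1 was at 243 ± 31.0 and 216 ± 19.9 CPM, with a log2 fold change of -0.17 (edgeR adjusted p = 0.145). BOP1 passed the test as a fall in 5 of 19 alternatives, including that leaving out DMSO replicate 4, and the gene is placed also on 1 alternate contig. PPAN, an early pre-60S factor, fell by 0.27 (edgeR adjusted p = 0.0126), from 32.1 ± 4.16 to 26.4 ± 1.38 CPM. Since P2RY11 and the read-through gene PPAN-P2RY11 cover 56.2% of its exon bases in the same orientation, its counts are uncertain. NIP7 and BRIX1, both needed for 27S-type precursor processing in yeast, had log2 fold changes of 0.12 and 0.10 and were not called.

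Among the 4 general nucleolar proteins, NPM1 and LYAR were called (50%, against 46.6% of all tested genes), in opposite directions. The median of the 4 was -0.07 (-0.14 without DMSO replicate 4, where 2 were lower). NPM1 (nucleophosmin), a histone and ribosome chaperone that gives the nucleolus its granular phase, had the highest level per exon length of all members, 1572 ± 74.1 RPKM in DMSO, followed by NCL with 537 ± 50.0 RPKM (CPM per kilobase of exon). NPM1 was at 3817, 3539, 3664 and 3420 CPM in DMSO and at 2937, 2809, 2844 and 2792 CPM in PR-957. No library overlapped, and NPM1 fell by 0.34 (SE 0.06, edgeR adjusted p = 6.45e-05), kept in all 19 alternatives. NPM1 has processed pseudogenes, and reads that match several copies may be lost or split. LYAR, a nucleolar zinc finger protein, was at 138, 119, 125 and 106 CPM in DMSO and at 151, 140, 161 and 157 CPM in PR-957, a rise of 0.32 (SE 0.07, edgeR adjusted p = 0.00128) without overlap. The RNA-binding protein NCL (nucleolin) and the helicase DDX21 had log2 fold changes of -0.06 and -0.08 and were not called.

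The summed transcripts of the 43 genes took 1.18 ± 0.0729% of all counts in DMSO and 1.18 ± 0.00701% in PR-957 (SD, n = 4), and 1.22 ± 0.0268% in DMSO replicates 1 to 3. Within that sum, NPM1 and NCL together went from 0.556 ± 0.0268% to 0.499 ± 0.00615%, and the 41 remaining genes from 0.625 ± 0.0472% to 0.681 ± 0.00415%, the latter against 0.648 ± 0.0135% in DMSO replicates 1 to 3. All shares in this paragraph are of raw library totals, without the TMM scaling behind the CPM values. TMM factors averaged 0.973 ± 0.0175 with DMSO and 1.03 ± 0.0187 with PR-957, so small differences between the shares depend on the scaling. The SD was smaller with PR-957 than with DMSO in 38 of 42 members (90.5%, against 57.8% of all tested genes), but without DMSO replicate 4 in 17 of 42 (40.5%, against 44.4%). DMSO replicate 4, with a member share of 1.08%, accounted for the low end of the DMSO range, the other DMSO libraries lying between 1.19% and 1.24%. The 83 genes of ribosomal proteins, the cargo of this machinery, had a summed share of 18.6 ± 0.596% with DMSO against 14.6 ± 0.732% with PR-957, and for them DMSO replicate 4 was at 18.7%, within the range of the others.

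**Figure D3:**
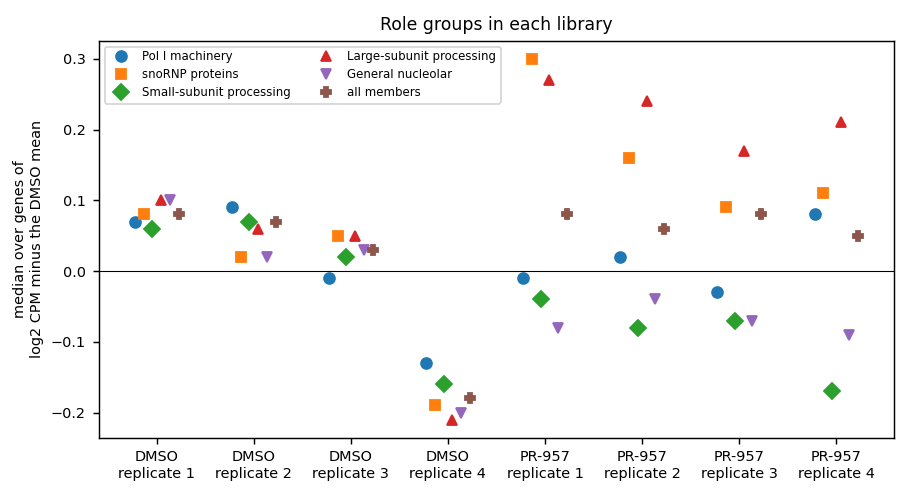
Median over the genes of each role group of log2 CPM minus the gene's DMSO mean (y axis) in each of the 8 libraries (x axis). All 5 role groups are lowest among the DMSO libraries in replicate 4 (-0.13 to -0.21), and in PR-957 the large-subunit factors (0.17 to 0.27) and snoRNP proteins (0.09 to 0.30) lie above the small-subunit factors (-0.17 to -0.04) in every library.

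Since a library that is low in the whole programme shifts all members together, the balance between proteins of the same complex was also expressed as a log2 ratio of their counts within each library, from which depth and scaling cancel. The 16 pairs within the box C/D, box H/ACA, PeBoW and t-UTP complexes, and the order of genes in each pair, were chosen after the members' values were seen. The ratios are therefore descriptions without a test, and pairs that share a gene are not independent. FBL and RRP9 were not paired. The NOP56/NOP58 ratio was 0.53, 0.66, 0.58 and 0.58 in DMSO and 0.94, 0.90, 0.93 and 1.08 in PR-957, and DMSO replicate 4 lay among the other DMSO libraries. The NOP10/DKC1 ratio was -2.18, -2.27, -2.09 and -2.04 in DMSO and -1.54, -1.67, -1.55 and -1.55 in PR-957, a difference of 0.57 between means, and GAR1/DKC1 differed by 0.45. The widest shift was that of PES1/WDR12, at 0.76, 0.61, 0.76 and 0.74 in DMSO and 1.28, 1.26, 1.26 and 1.37 in PR-957. In the t-UTP complex UTP15/HEATR1 differed by 0.41, whereas WDR43/HEATR1, whose genes both fell, differed by 0.03 with overlapping groups. In 10 of the 16 pairs the groups did not overlap, as was so for 57% of all 861 pairs of tested members, so that share is near that of member pairs at large.

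**Figure D4:**
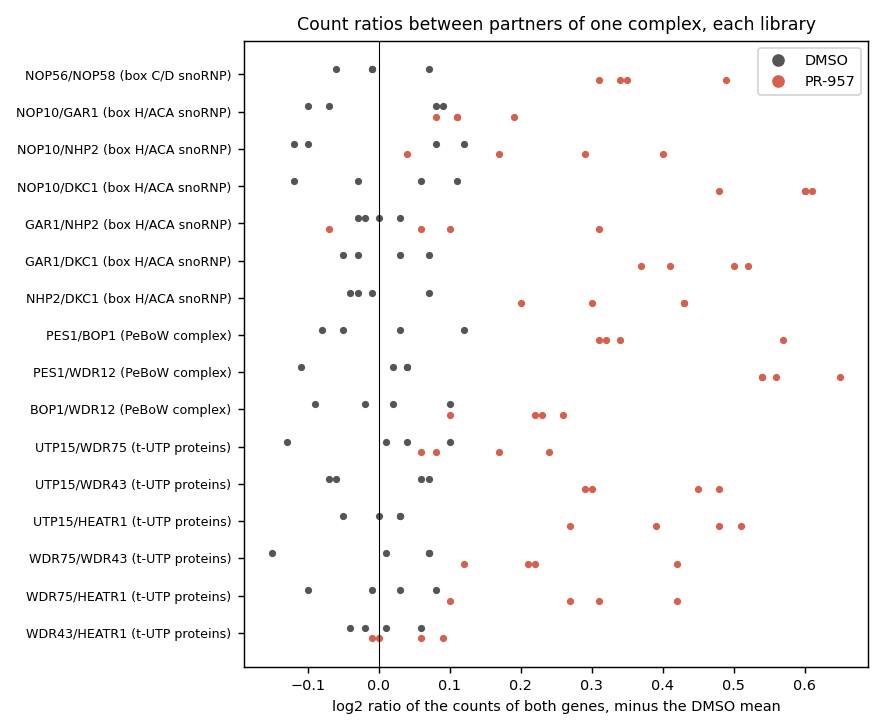
Log2 ratio of the counts of each pair, minus the DMSO mean of the pair (x axis), in each DMSO (grey) and PR-957 (red) library for 16 pairs within 4 complexes (y axis). PR-957 libraries lie to the right of all DMSO libraries in 10 pairs, farthest for PES1/WDR12 (0.58 between means) and NOP10/DKC1 (0.57), and coincide with them for WDR43/HEATR1.

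To ask whether the contrast between large- and small-subunit members extends to their pathways, 128 further genes of ribosome biogenesis were counted, of which 123 were tested. Of these, 38 were higher (30.9%, against 23.1% of all tested genes) and 25 lower (20.3%, against 23.5%), with a median of 0.04. The contrast was not seen there. The other large-subunit factors had 15 higher and 11 lower of 46 (32.6% and 23.9%), a median of 0.04. The other small-subunit factors had 13 higher and 4 lower of 42 (31% and 9.52%), a median of 0.08. Without DMSO replicate 4 these counts were 13 and 14 for the large-subunit and 8 and 8 for the small-subunit list. Some genes of these lists have uncertain counts. SENP3, called higher, shares 78.1% of its exon bases with a read-through gene. WDR46, at 1.64 CPM in DMSO and not called, is placed also on 4 alternate contigs. The large-subunit list held both FTSJ3, an rRNA methyltransferase with a rise of 0.51 (edgeR adjusted p = 1.79e-06), and RSL24D1, a placeholder for a ribosomal protein in pre-60S particles. RSL24D1 was at 584, 557, 581 and 537 CPM in DMSO and at 290, 283, 269 and 261 CPM in PR-957, a fall of 1.03 (SE 0.06, edgeR adjusted p = 2.00e-11). In the small-subunit list RRP36 rose most, by 0.54 (edgeR adjusted p = 8.54e-07), and UTP4, a t-UTP protein, fell most, by 0.46 (edgeR adjusted p = 0.00145), although its gene is placed also on an alternate contig. The 15 exosome and turnover genes, which trim the precursor's ends and spacers, gave 4 higher and 5 lower. These were 26.7% and 33.3%, against 23.1% and 23.5% of all tested genes. EXOSC8, a ring subunit of the exosome, fell by 0.85 (edgeR adjusted p = 1.73e-08), while MPHOSPH6, its cofactor for 5.8S rRNA, rose by 0.57 (edgeR adjusted p = 9.70e-07).

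**Figure D5:**
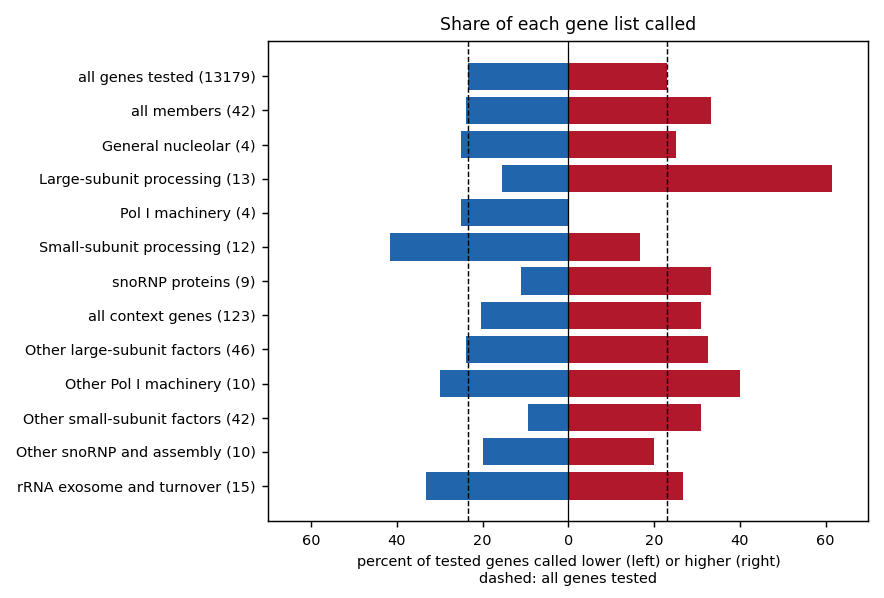
Percent of the tested genes of each list called lower (left, blue) or higher (right, red), with the number tested in parentheses and all tested genes as dashed lines (23.5% lower, 23.1% higher). Large-subunit members reach 61.5% higher and small-subunit members 41.7% lower (5 of 12, and 2 to 7 of 12 without single libraries), while the other large- and small-subunit factors reach 32.6% higher and 9.52% lower.

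MYC, the transcription factor known to drive many of these genes, was itself lower under PR-957. It was at 842, 833, 787 and 703 CPM in DMSO and at 545, 546, 519 and 516 CPM in PR-957, with no overlap, a fall of 0.57 on the log2 scale (SE 0.06, edgeR adjusted p = 3.37e-07). MYC transcript fell while 14 members of the programme rose (33.3%, against 23.1% of all tested genes) and 10 fell (23.8%, against 23.5%). A link between MYC and these changes was not tested. MYC was also lowest in replicate 4 among the DMSO libraries, as were 40 of the members.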

How the data were processed

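RNA of 8 MOLM-13 libraries was sequenced by the authors from polyA RNA. Per the labels and methods, reads were trimmed with Trimmomatic 0.39, aligned to hg38 with STAR 2.7.10a and counted per gene with featureCounts 2.0.1 as reverse-stranded fragments. The deposited table holds these raw counts per gene for 8 libraries, although its counting command names 16; the others were not analysed here. A table of the authors' DESeq2 fold changes and p-values was not used. Of the gene rows, 6 had no values and 3 carried names turned into dates. Groups came from the labels.

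Counts were filtered with edgeR's default filter, scaled by TMM and tested by quasi-likelihood (edgeR 4.0.16, R 4.3.3), with p-values Benjamini-Hochberg adjusted over 13179 genes at 0.05. DESeq2 1.42.0, limma-voom (limma 3.58.1), other scalings and filters, a replicate block, a term that separates replicates 1 and 2 from 3 and 4, either pair alone, and fits without each library were the 19 alternatives. The fit was tested on simulated data. The members, gene lists and tests were chosen with earlier results of these data known. Values in every library are given for the called members with the largest rise and fall of each role group and for MYC, and of each further list the genes with the largest called rise and fall are named; NOP56, PES1 and the paired genes were added after their values were seen. The read counts carry no molecular identifiers, and SEs come from the quasi-likelihood fit, which includes the spread between libraries. In these libraries 3 counts correspond to between 0.13 and 0.18 CPM. Promoters are from RefSeq, and motifs were chosen with the calls known.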

Additional observations from a re-analysis of the deposited data

Results flagged for a closer look

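A value was singled out where the highest or lowest of 4 libraries lay farther from the nearest other than Dixon's 95% limit allows. Of 132 groups of 4 values examined, 10 passed, and chance gives about 1 in 20. Of these 10, 5 were DMSO replicate 4 at the low end: NOP56 at 338 CPM against 412 to 415 in the other DMSO libraries, DKC1 at 350 against 407 to 418, BYSL at 59.4 against 68.5 to 70.1, RRP1B at 69.6 against 83.9 to 84.8, and the median of the large-subunit factors at -0.21 against 0.05 to 0.10.

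In PR-957 replicate 3, DDX10 was at 75.3 CPM against 70.7 to 70.8, and the members without NPM1 and NCL took 0.687% of counts against 0.678 to 0.679%. Among log2 ratios, NOP10/DKC1 was -1.67 in PR-957 replicate 2 against -1.55 to -1.54, PES1/BOP1 was 0.52 in PR-957 replicate 4 against 0.26 to 0.29, and PES1/WDR12 was 0.61 in DMSO replicate 2 against 0.74 to 0.76.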

How the results depend on the processing

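No member changed direction while called. Of the 14 rises, 13 were kept in all 19 alternatives (UTP15 was the exception), of the 10 falls 4 were (HEATR1, NOB1, WDR12 and NPM1), and of the 18 members not called 7 stayed so. The count of falls, 10, became 4 with library totals alone and 4 with replicates 3 and 4 only, and ranged from 5 to 14 when single libraries were left out: 5 without DMSO replicate 2, 6 without PR-957 replicate 3 and 14 without DMSO replicate 4. The count of member rises, 14, ranged from 13 to 15 without single libraries and was 14 in replicates 1 and 2 alone and 14 in replicates 3 and 4 alone. The Pol I median of 0.01 became 0.09 with library totals alone. The causes were not tested. The 16 partner ratios were recomputed without each library and in either pair of replicate numbers (chosen after seeing the data). Differences between group means moved by less than the larger of the SDs of both groups. For some pairs they moved by more than the smaller SD, as for GAR1/NHP2, with SDs of 0.03 in DMSO and 0.16 in PR-957.

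Same-numbered libraries of both groups deviated together with r = 0.151, 0.213, 0.098 and 0.198 for replicates 1 to 4, so the number was not taken as a pairing, although 7 of 8 libraries matched best with their own number in the other group. With a replicate block, 17 members were higher and 12 lower, with NHP2, NOLC1 and BYSL added to the rises and DDX10 and BOP1 to the falls.

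With 4 libraries a group and SEs of 0.06 to 0.09 for most members, changes of -0.17 (BOP1, SE 0.09) and 0.15 (NHP2, SE 0.08) on the log2 scale were not called. TAF1D and NAT10, each at -0.17 with an SE of 0.06, were called. Differences of that size and below may therefore go undetected, depending on the spread of the gene.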
